A study of Mus musculus with 24 samples.

Results

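The bile acid and organic anion transporters of the mouse liver were examined as a set of 9 genes among the 21144 genes measured. The members were the probe sets whose gene symbol was exactly Slc10a1, Slco1b2, Slco1a1, Slco1a4, Abcb11, Abcc2, Abcc3, Abcc4 or Slc51b. All 9 were on the array, with 1 probe set used for each, and no filter on low signals was applied. Liver RNA of 24 mice was hybridised to an Affymetrix array, 1 array per mouse, with 3 mice in each of 8 groups. In the CCl4 experiment, N-RAS-/- and N-RAS+/+ mice received CCl4, or corn oil alone, in 2 injections a week for 4 weeks. For bile duct ligation (BDL), N-RAS-/- and N-RAS+/+ mice were operated on, with sham surgery as the control, and their livers were taken on day 28. The labels give all mice as males of 8 to 10 weeks at inclusion, assigned to groups at random. The deletion of N-RAS, a small GTPase of the Ras family, was carried in every cell of the body, and the mice had a C57BL/6J background, so that the arrays do not tell a change within hepatocytes from one in another liver cell. In whole liver, fewer cells of a type and less RNA per cell cannot be told apart.

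Values are log2 signals as deposited, in which a difference of 1 is a doubling. A difference was called at an adjusted p under 0.05 in limma, with p values adjusted over all genes. Array medians ran from 5.55 to 5.70. Nras itself lay between 4.55 and 5.55 on the 12 N-RAS-/- arrays and between 5.92 and 8.04 on the 12 N-RAS+/+ arrays, and was called lower in N-RAS-/- livers in all 4 settings. Hepatocyte markers (9 of the 10 listed were on the array) averaged 12.24 to 12.74 on every array. On 6 arrays the Y-linked genes went against the label of male mice: N07, N08 and N09 (all N-RAS-/- sham), N28 (N-RAS-/- oil) and N01 and N03 (N-RAS+/+ sham). The 4 Y-linked genes averaged 3.0 to 3.59 on these 6 arrays and 6.84 to 8.25 on the other 18, and 5 genes known to be female-biased in mouse liver averaged 10.35 to 11.09 on the 6 arrays and 4.67 to 6.44 on the other 18. Male-biased liver genes (6 of 6 on the array) averaged 7.34 to 7.73 on the 6 arrays and 11.47 to 11.9 on the other 6 oil and sham arrays. Over all other 18 arrays they ran from 7.21 to 11.9 and so overlapped. One N-RAS-/- BDL array (N12) had skeletal muscle genes at 8.21, against 3.58 to 4.26 on the other 23. The 3 N-RAS-/- sham arrays all had low Y-linked signal and the 3 N-RAS-/- BDL arrays did not, so between those groups it cannot be told apart from the operation. Within a group of the BDL experiment, Y-linked signal differed widely in N-RAS+/+ sham livers alone (N01 3.59, N02 7.87, N03 3.19). Fits of that experiment with Y-linked signal as a term therefore rest mainly on array N02. Their values for N-RAS-/- livers carry its slope over to groups where it could not be estimated.

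Bile acids circulate between liver and intestine. Hepatocytes take them up from portal blood through sodium-dependent and sodium-independent carriers of the basolateral (sinusoidal) membrane, conjugate them and pump them into the bile canaliculus through ATP-driven exporters. When bile flow is blocked, a further set of basolateral exporters can return bile acids to the blood. FXR (Nr1h4), the nuclear receptor that bile acids activate, controls many of these carriers, in part by binding to inverted repeats of its half-site in their promoters.

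The promoters of the members were read from the RefSeq annotation of GRCm38.p6, from 250 bases before to 50 bases after each start site. Of the 9 members, 8 had such a window, with 10 windows in all (Slc10a1 and Abcc4 had 2 each). Each was searched on both strands for an inverted repeat of AGGTCA with 1 base between the copies, the form bound by FXR, with at most 2 mismatches. A match to this repeat was present in 1.14% of 32851 promoters and, with at most 1 mismatch, in 0.0822%. Among the members it was found in Abcb11, at -94 to -82 with 2 mismatches and at -63 to -51 with 1 mismatch, and in Slco1b2, at -88 to -76 with 1 mismatch. These windows are shown because Abcb11 is a known FXR target and because both genes carried the repeat; capitals mark the matches.
Abcb11 (chr2:69342567-69342866, - strand): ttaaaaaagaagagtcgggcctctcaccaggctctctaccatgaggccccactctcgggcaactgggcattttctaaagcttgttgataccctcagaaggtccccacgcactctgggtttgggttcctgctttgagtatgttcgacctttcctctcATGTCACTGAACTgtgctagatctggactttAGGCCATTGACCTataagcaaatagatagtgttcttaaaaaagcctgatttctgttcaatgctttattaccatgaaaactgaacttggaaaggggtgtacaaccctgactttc
Slco1b2 (chr6:141629268-141629567, + strand): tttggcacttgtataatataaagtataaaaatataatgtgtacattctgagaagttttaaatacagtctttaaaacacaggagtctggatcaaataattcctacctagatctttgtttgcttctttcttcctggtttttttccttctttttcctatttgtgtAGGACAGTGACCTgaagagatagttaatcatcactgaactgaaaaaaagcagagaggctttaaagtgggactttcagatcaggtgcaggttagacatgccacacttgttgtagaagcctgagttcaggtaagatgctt
Neither window of Slc10a1 nor that of Slco1a1, Slco1a4, Abcc2, Abcc4 or Slc51b held the repeat. The window of Slc51b, the member with the largest rise after BDL, is shown for comparison and has no capitals.
Slc51b (chr9:65422724-65423023, - strand): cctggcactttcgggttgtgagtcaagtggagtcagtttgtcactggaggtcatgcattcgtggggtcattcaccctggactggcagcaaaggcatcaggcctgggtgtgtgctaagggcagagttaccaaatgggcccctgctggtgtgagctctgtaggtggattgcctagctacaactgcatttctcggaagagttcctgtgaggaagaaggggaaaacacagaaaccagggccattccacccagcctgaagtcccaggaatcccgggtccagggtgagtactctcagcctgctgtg
The HNF1 element, an inverted repeat of GTTAAT with 1 base between the copies, was searched with at most 2 mismatches. It was present in 1.36% of all promoters and, among the members, in Abcc2 alone, at -75 to -63 with 2 mismatches. The core of the antioxidant response element, TGACNNNGC, was present in 12.4% of all promoters and in Abcc2 and both windows of Abcc4. The first window of Abcc4, the member that rose after CCl4, has it on the opposite strand at -25 to -17, in capitals.
Abcc4 (chr14:118706170-118706469, - strand): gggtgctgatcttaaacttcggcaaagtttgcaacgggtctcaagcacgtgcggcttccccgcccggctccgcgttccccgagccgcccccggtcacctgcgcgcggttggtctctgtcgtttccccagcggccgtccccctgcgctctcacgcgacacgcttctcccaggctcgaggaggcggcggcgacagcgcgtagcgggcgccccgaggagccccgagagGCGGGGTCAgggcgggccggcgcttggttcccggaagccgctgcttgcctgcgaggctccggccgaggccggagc
These matches describe the letters only and were not tested for binding.

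After CCl4, the carriers that bring bile acids and organic anions into hepatocytes were lower in both genotypes, and Abcb11, the canalicular bile salt pump, was lower too, whereas Abcc4, a basolateral exporter, was higher. Each of the 6 falls called in both genotypes was numerically larger in N-RAS-/- livers. In N-RAS-/- livers 8 of the 9 members were called after CCl4 (7 lower, 1 higher), against 22.8% of all genes (9.19% lower, 13.6% higher). In N-RAS+/+ livers 7 were called (6 lower, 1 higher), against 15.2% of all genes (7.16% lower, 8.08% higher). The median difference over the members was -1.56 in N-RAS-/- livers and -0.92 in N-RAS+/+ livers, while the median over all genes was -0.02 in N-RAS-/- livers and 0.01 in N-RAS+/+ livers. After BDL, 5 members were called in N-RAS-/- livers (3 lower, 2 higher), against 11.2% of all genes (4.05% lower, 7.18% higher). In N-RAS+/+ livers 6 were called (3 lower, 3 higher), against 7.21% of all genes (2.70% lower, 4.51% higher). The plot of every array shows these levels.

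**Figure D1:**
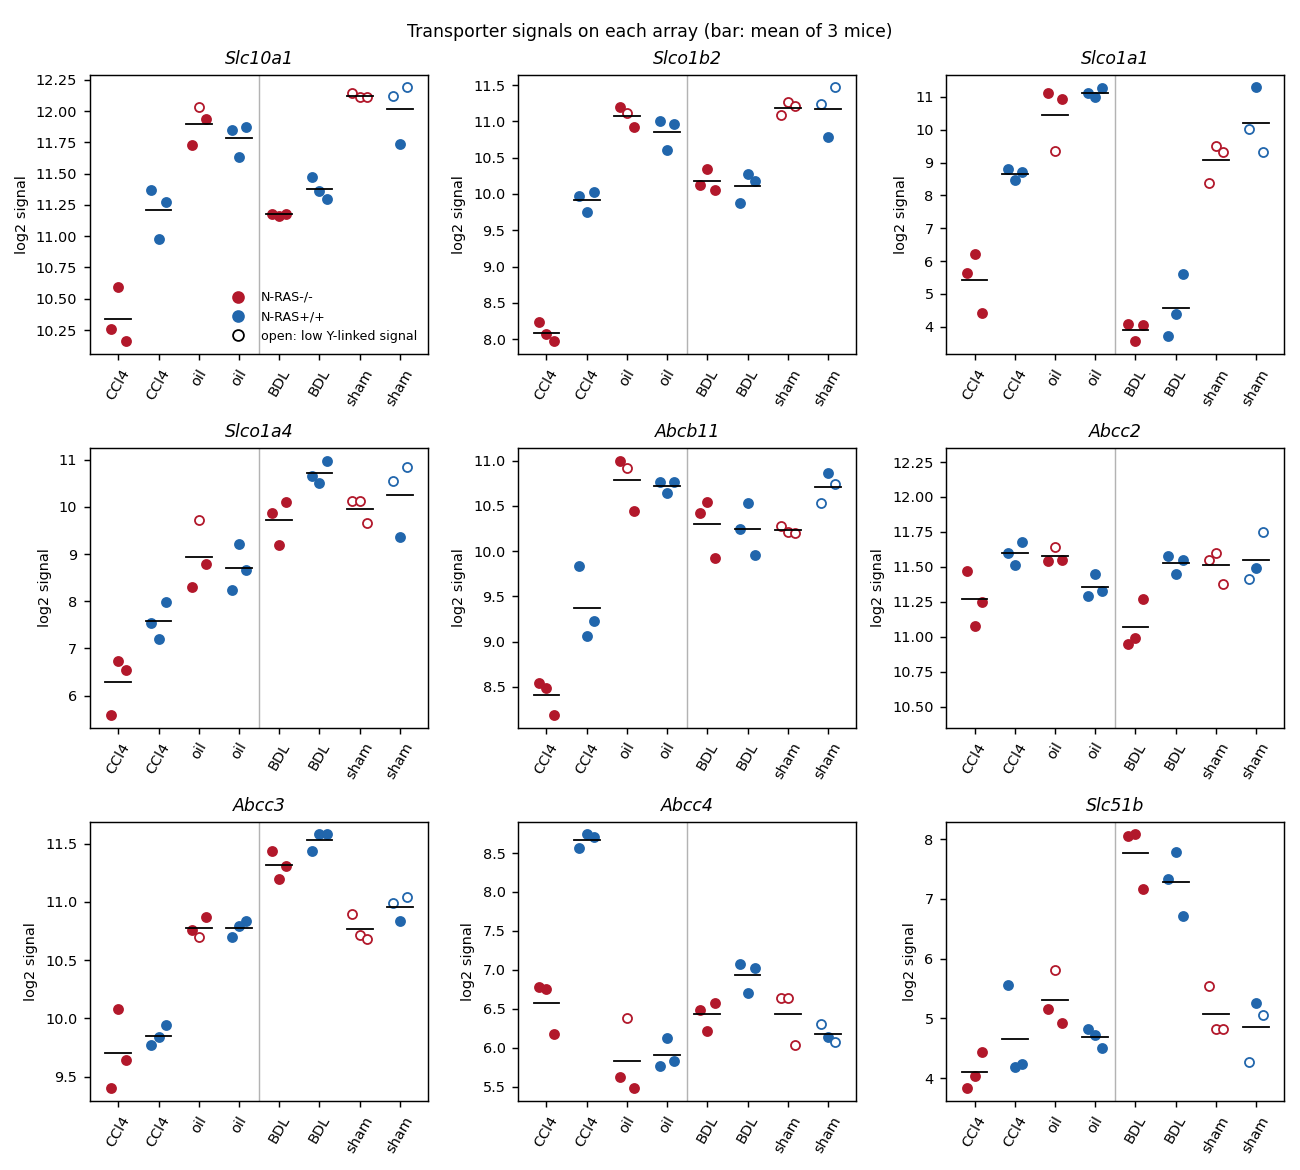
Log2 signal of each of the 9 transporters on every array. Points are mice (red N-RAS-/-, blue N-RAS+/+, open symbols for the 6 arrays with low Y-linked signal), bars are means of 3, the vertical line parts the experiments, and axes differ between genes. Abcc4 lies at 8.56 to 8.74 in N-RAS+/+ CCl4 livers, above all other groups, and Slc51b at 6.71 to 8.08 in BDL livers, above all other groups.

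Slc10a1 encodes NTCP, the sodium-dependent carrier that takes up most conjugated bile acids. Its N-RAS-/- signals were 10.26, 10.59 and 10.16 after CCl4, against 11.73, 12.03 and 11.94 after oil. Its N-RAS+/+ signals were 11.37, 10.98 and 11.27 after CCl4, against 11.85, 11.63 and 11.87 after oil. The CCl4 and oil livers did not overlap in either genotype, and the N-RAS-/- CCl4 livers were the lowest of all 24. Slc10a1 fell by 1.56 ± 0.16 (SE) on the log2 scale in N-RAS-/- livers (2.96-fold, adjusted p = 7.33e-06) and fell by 0.58 ± 0.16 in N-RAS+/+ livers (1.49-fold, adjusted p = 0.0259). The fall in N-RAS+/+ livers was not called when oil array N21 or N23 or CCl4 array N25 or N26 was left out (adjusted p = 0.0816, 0.0853, 0.130 and 0.0536). BDL lowered it as well. The BDL livers read 11.18, 11.16 and 11.18 in N-RAS-/- mice, against 12.14, 12.11 and 12.11 in N-RAS-/- sham livers. In N-RAS+/+ mice the BDL livers read 11.47, 11.36 and 11.30, against 12.12, 11.74 and 12.19 in sham livers. It fell by 0.94 ± 0.14 in N-RAS-/- livers (adjusted p = 4.62e-04) and fell by 0.64 ± 0.14 in N-RAS+/+ livers (adjusted p = 0.0103). With Y-linked signal as a term of the fit the differences after BDL were -0.54 in N-RAS-/- livers (adjusted p = 0.239) and -0.34 in N-RAS+/+ livers (adjusted p = 0.40), and leaving out N-RAS+/+ sham array N01 or N03 gave an adjusted p of 0.0530 or 0.0522.

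Slco1b2 encodes OATP1B2, a sodium-independent carrier of unconjugated bile acids, bilirubin conjugates and many drugs. The N-RAS-/- livers read 8.23, 8.07 and 7.97 after CCl4, against 11.20, 11.12 and 10.92 after oil. The N-RAS+/+ livers read 9.97, 9.75 and 10.02 after CCl4, against 11, 10.60 and 10.97 after oil. The 3 N-RAS-/- CCl4 livers stood apart from every other liver by more than 1.5 on the log2 scale. Slco1b2 fell by 2.99 ± 0.15 in N-RAS-/- livers (7.92-fold, adjusted p = 1.34e-08) and fell by 0.94 ± 0.15 in N-RAS+/+ livers (1.92-fold, adjusted p = 8.09e-04). After BDL it fell in both genotypes, with an interaction of 0.04 (95% interval from -0.49 to 0.58). The N-RAS-/- BDL livers read 10.13, 10.34 and 10.05, against 11.09, 11.26 and 11.21 in N-RAS-/- sham livers. The N-RAS+/+ BDL livers read 9.87, 10.28 and 10.18, against 11.24, 10.78 and 11.47 in N-RAS+/+ sham livers. The fall was 2.02-fold in N-RAS-/- livers (log2 difference -1.01 ± 0.18, adjusted p = 0.00201) and 2.08-fold in N-RAS+/+ livers (-1.06 ± 0.18, adjusted p = 0.00210). A fit with Y-linked signal as a term gave -0.50 in N-RAS-/- livers (adjusted p = 0.456) and -0.67 in N-RAS+/+ livers (adjusted p = 0.158).

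Slco1a1 encodes OATP1A1, a broad organic anion carrier known to be male-predominant in mouse liver. It had the widest range of the members, from 3.56 to 11.29. After CCl4 the N-RAS-/- livers read 5.64, 6.23 and 4.42, against 11.11, 9.34 and 10.92 after oil. The N-RAS+/+ livers read 8.79, 8.47 and 8.71 after CCl4, against 11.11, 10.99 and 11.28 after oil. Slco1a1 fell by 5.03 ± 0.43 in N-RAS-/- livers (32.6-fold, adjusted p = 1.07e-06) and fell by 2.47 ± 0.43 in N-RAS+/+ livers (5.54-fold, adjusted p = 0.00117). BDL took it to the low end of the array in both genotypes. The N-RAS-/- livers read 4.09, 3.56 and 4.05 after BDL, against 8.37, 9.51 and 9.31 after sham. The N-RAS+/+ livers read 3.71, 4.38 and 5.61 after BDL, against 10.02, 11.29 and 9.33 after sham. The falls were 35.8-fold in N-RAS-/- livers (log2 difference -5.16 ± 0.49, adjusted p = 1.98e-05) and 50.1-fold in N-RAS+/+ livers (-5.65 ± 0.49, adjusted p = 1.50e-05). With signals below 5 set to 5, the differences were -4.07 in N-RAS-/- livers and -5.01 in N-RAS+/+ livers (adjusted p = 0.00238 and 0.00146), so that the size of these folds depends on how signals at the low end were treated. The 5 sham arrays and the 1 oil array with low Y-linked signal read 8.37 to 10.02, below the other 6 control arrays, which read 10.92 to 11.29. The male-biased liver genes averaged 7.30 to 7.43 in N-RAS-/- BDL livers and 7.21 to 7.82 in N-RAS+/+ BDL livers. In CCl4 livers they averaged 9.09 to 9.46 (N-RAS-/-) and 9.13 to 9.77 (N-RAS+/+). Their relation to the falls of Slco1a1 was not tested. Taking Y-linked signal as a term, a fit that rests mainly on array N02, the Slco1a1 difference after BDL was -6.76 in N-RAS-/- livers (adjusted p = 2.05e-04). In N-RAS+/+ livers it was -6.85 (adjusted p = 3.22e-05).

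Slco1a4 encodes OATP1A4, a related carrier known to be female-predominant in mouse liver. After CCl4 the N-RAS-/- livers read 5.59, 6.74 and 6.55, against 8.30, 9.72 and 8.80 after oil. The N-RAS+/+ livers read 7.54, 7.20 and 7.99 after CCl4, against 8.24, 9.21 and 8.66 after oil. It fell by 2.64 ± 0.36 in N-RAS-/- livers (6.25-fold, adjusted p = 9.45e-05) and fell by 1.13 ± 0.36 in N-RAS+/+ livers (2.18-fold, adjusted p = 0.0480). The fall in N-RAS+/+ livers was not called without oil array N22 (-0.88, adjusted p = 0.187) or N23 (adjusted p = 0.101) or without CCl4 array N24 (adjusted p = 0.102) or N25 (adjusted p = 0.187), nor with signals floored at 5 (adjusted p = 0.173). Unlike the other uptake carriers, Slco1a4 was not called lower after BDL. The N-RAS-/- BDL livers read 9.88, 9.19 and 10.10, against 10.12, 10.12 and 9.66 after sham, a difference of -0.24 with a 95% interval from -0.94 to 0.46. The N-RAS+/+ BDL livers read 10.66, 10.51 and 10.98, against 10.56, 9.36 and 10.84 after sham, a difference of 0.46 with an interval from -0.24 to 1.16. In the N-RAS+/+ sham group the lowest value was that of N02, the array with Y-linked signal. In N-RAS-/- oil livers the highest was that of N28, the array without it. With Y-linked signal as a term the BDL difference was 1.05 in N-RAS-/- livers (adjusted p = 0.210) and 1.44 in N-RAS+/+ livers (adjusted p = 0.0260). That fit rests mainly on array N02. Without the 6 arrays of low Y-linked signal, which left N02 as the only N-RAS+/+ sham array, the difference in N-RAS+/+ livers was 1.36.

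**Figure D2:**
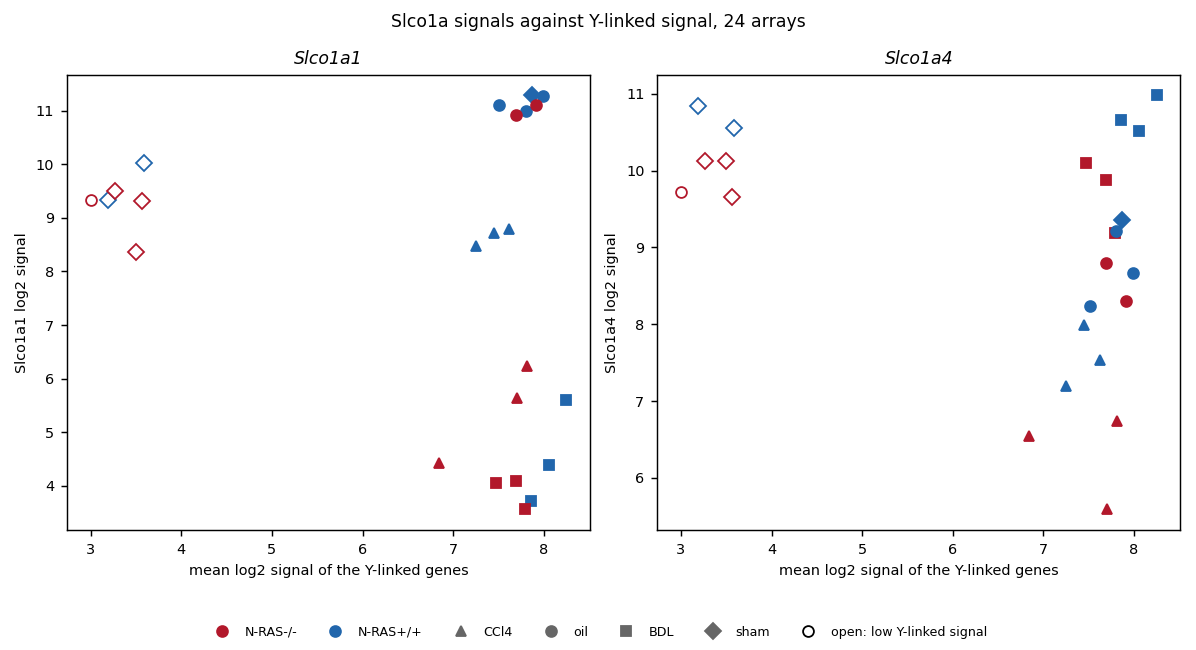
Log2 signal of Slco1a1 (left) and Slco1a4 (right) on each of the 24 arrays against the mean log2 signal of 4 Y-linked genes. Red is N-RAS-/- and blue N-RAS+/+, shapes give the treatment, and open symbols mark the 6 arrays with Y-linked signal of 3.0 to 3.59. Slco1a1 reads 8.37 to 10.02 on those 6 arrays and 10.92 to 11.29 on the other 6 oil and sham arrays.

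Abcb11 encodes BSEP, the canalicular pump that sets bile salt flow, and its promoter held 2 matches to the FXR repeat, printed above. Signals in N-RAS-/- livers were 8.54, 8.49 and 8.19 after CCl4, against 11, 10.92 and 10.44 after oil. Signals in N-RAS+/+ livers were 9.84, 9.06 and 9.23 after CCl4, against 10.77, 10.64 and 10.76 after oil. The groups did not overlap, and the N-RAS-/- CCl4 livers were again the lowest. Abcb11 fell by 2.38 ± 0.20 in N-RAS-/- livers (5.20-fold, adjusted p = 1.13e-06) and fell by 1.35 ± 0.20 in N-RAS+/+ livers (2.54-fold, adjusted p = 4.39e-04). No call was made after BDL. The N-RAS-/- BDL livers read 10.42, 10.54 and 9.93, against 10.28, 10.21 and 10.20 after sham, a difference of 0.07 with a 95% interval from -0.32 to 0.46. The N-RAS+/+ BDL livers read 10.24, 10.53 and 9.96, against 10.53, 10.87 and 10.74 after sham, a difference of -0.47 with an interval from -0.86 to -0.08 (adjusted p = 0.157).

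Abcc2 encodes MRP2, the canalicular exporter of conjugated bilirubin and glutathione conjugates. It had the narrowest range of the members, from 10.95 to 11.75 over all 24 livers. It was called in none of the 4 treatment comparisons. Its differences after CCl4 were -0.31 ± 0.14 in N-RAS-/- livers (adjusted p = 0.129) and 0.24 ± 0.14 in N-RAS+/+ livers (adjusted p = 0.292). After BDL they were -0.44 ± 0.14 in N-RAS-/- livers (adjusted p = 0.0602) and -0.02 ± 0.14 in N-RAS+/+ livers (adjusted p = 0.958). The N-RAS-/- BDL livers read 10.95, 10.99 and 11.27, below the N-RAS-/- sham livers at 11.55, 11.60 and 11.38. The highest of the BDL livers was N12, the array with muscle genes, and without it the difference was -0.54 (adjusted p = 0.0408). With all arrays kept, it was also called with dim genes left out (adjusted p = 0.0380), with trended and robust eBayes (0.0190), with array weights (0.0347) and with all 24 arrays in 1 fit (0.0254), over a range of adjusted p values from 0.0190 to 0.666 across its alternatives.

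The 3 basolateral exporters moved in different directions. Abcc3 encodes MRP3, which exports glucuronides and some bile acids to the blood. It read 9.40, 10.08 and 9.64 in N-RAS-/- CCl4 livers, against 10.76, 10.70 and 10.87 in N-RAS-/- oil livers. In N-RAS+/+ mice it read 9.77, 9.84 and 9.94 in CCl4 livers, against 10.70, 10.79 and 10.84 in oil livers. It fell by 1.07 ± 0.16 after CCl4 in N-RAS-/- livers (2.10-fold, adjusted p = 2.50e-04) and fell by 0.92 ± 0.16 in N-RAS+/+ livers (1.90-fold, adjusted p = 0.00144). After BDL Abcc3 went the other way. The N-RAS-/- BDL livers read 11.44, 11.20 and 11.31, against 10.90, 10.72 and 10.68 after sham. The N-RAS+/+ BDL livers read 11.44, 11.58 and 11.58, against 10.99, 10.84 and 11.04 after sham. It rose 1.46-fold in N-RAS-/- livers (log2 difference 0.55 ± 0.13, adjusted p = 0.0126) and 1.49-fold in N-RAS+/+ livers (0.58 ± 0.13, adjusted p = 0.0130), with no overlap. The rise in N-RAS-/- livers was not called without sham array N08 or N09 or BDL array N10 (adjusted p = 0.0506, 0.0531 and 0.0582). Y-linked signal as a term put the rise at 0.71 in N-RAS-/- livers (adjusted p = 0.151) and at 0.70 in N-RAS+/+ livers (adjusted p = 0.0742).

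Abcc4 encodes MRP4, an exporter of bile acids, cyclic nucleotides and other organic anions, and was the member that rose after CCl4. N-RAS-/- mice had 6.78, 6.75 and 6.18 after CCl4, against 5.62, 6.38 and 5.48 after oil. N-RAS+/+ mice had 8.56, 8.74 and 8.71 after CCl4, against 5.77, 6.13 and 5.83 after oil. The N-RAS+/+ CCl4 livers stood above every other liver, whereas the N-RAS-/- CCl4 and oil livers overlapped. Abcc4 rose 6.79-fold in N-RAS+/+ livers (log2 difference 2.76 ± 0.22, adjusted p = 1.57e-06). The rise in N-RAS-/- livers was 1.67-fold (0.74 ± 0.22, adjusted p = 0.0255). That smaller rise was not called without oil array N27 or N29 or CCl4 array N30 or N31 (adjusted p = 0.0963, 0.114, 0.102 and 0.0943), nor after quantile normalization (0.63, adjusted p = 0.0512). Macrophage markers, 6 of 6 on the array, averaged 8.69 to 9.05 in N-RAS-/- CCl4 livers and 8.50 to 9.0 in N-RAS+/+ CCl4 livers, against 7.89 to 8.29 in N-RAS-/- oil livers and 7.56 to 7.79 in N-RAS+/+ oil livers. Their part in the rise of Abcc4 was not tested. After BDL Abcc4 read 6.49, 6.22 and 6.58 in N-RAS-/- livers, against 6.64, 6.64 and 6.04 after sham, a difference of -0.01 with a 95% interval from -0.39 to 0.38. In N-RAS+/+ livers it read 7.07, 6.71 and 7.02 after BDL, against 6.31, 6.14 and 6.07 after sham, and rose 1.69-fold (0.76 ± 0.18, adjusted p = 0.0191). This rise was not called without sham array N03 or BDL array N04 or N06 (adjusted p = 0.0745, 0.0738 and 0.0608), nor with Y-linked signal as a term (0.82, adjusted p = 0.154).

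Slc51b encodes OSTβ, one chain of the basolateral transporter that returns bile acids to the blood, and is induced by FXR. Its signals outside the BDL groups ran from 3.83 to 5.81, near or below the array medians of 5.55 to 5.70. BDL brought N-RAS-/- livers to 8.05, 8.08 and 7.17 against 5.55, 4.83 and 4.83 after sham. N-RAS+/+ livers read 7.34, 7.78 and 6.71 after BDL, against 4.27, 5.25 and 5.05 after sham. All 6 BDL livers were above the other 18 livers. Slc51b rose 6.47-fold in N-RAS-/- livers (log2 difference 2.69 ± 0.33, adjusted p = 1.41e-04) and 5.36-fold in N-RAS+/+ livers (2.42 ± 0.33, adjusted p = 4.42e-04). Without the arrays of low Y-linked signal, which left 1 N-RAS+/+ sham array, the rise in N-RAS+/+ livers was 2.03 (adjusted p = 0.0644), and with Y-linked signal as a term that in N-RAS-/- livers was 2.18 (adjusted p = 0.0663). Bile duct epithelial markers (8 of 8 on the array) averaged 6.71 to 7.50 in N-RAS-/- BDL livers and 6.60 to 7.57 in N-RAS+/+ BDL livers, against 5.38 to 5.57 in N-RAS-/- sham livers and 5.42 to 5.55 in N-RAS+/+ sham livers. Bile duct cells also express Slc51b, and their part in the rise was not tested. Slc51a, the gene of the partner chain OSTα, lay between 3.88 and 4.96 on all 24 arrays. It belongs to the list of other carriers counted below and was picked for naming after its values were seen. After CCl4 Slc51b read 3.83, 4.03 and 4.43 in N-RAS-/- livers, against 5.16, 5.81 and 4.93 after oil, a fall of 2.30-fold (-1.20 ± 0.31, adjusted p = 0.0120). With signals below 5 set to 5 this difference was -0.32 (adjusted p = 0.450), and without oil array N28 or CCl4 array N30 the adjusted p was 0.0538 or 0.0547. In N-RAS+/+ livers it read 5.56, 4.19 and 4.24 after CCl4, against 4.83, 4.72 and 4.50 after oil, a difference of -0.02 with a 95% interval from -0.69 to 0.65.

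**Figure D3:**
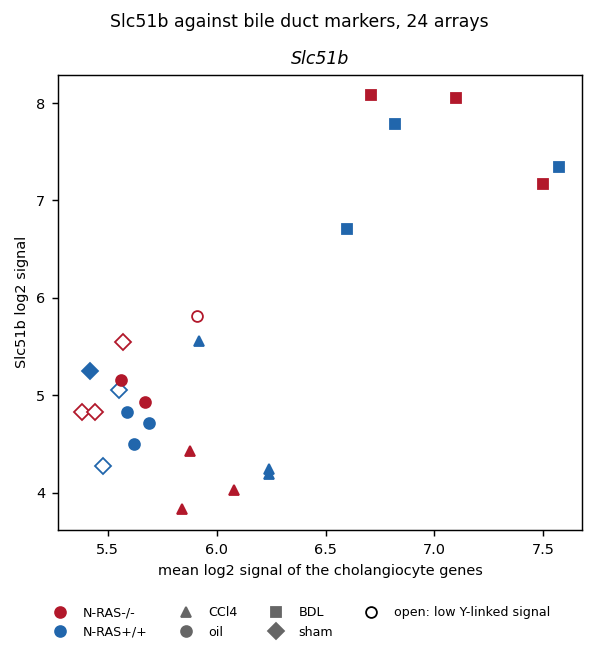
Log2 signal of Slc51b against the mean log2 signal of 8 bile duct epithelial (cholangiocyte) markers on each of the 24 arrays. Red is N-RAS-/- and blue N-RAS+/+, shapes give the treatment, and symbols are open where Y-linked signal was low. The 6 BDL livers (squares) lie apart at marker levels of 6.60 to 7.57 and Slc51b signals of 6.71 to 8.08.

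**Figure D4:**
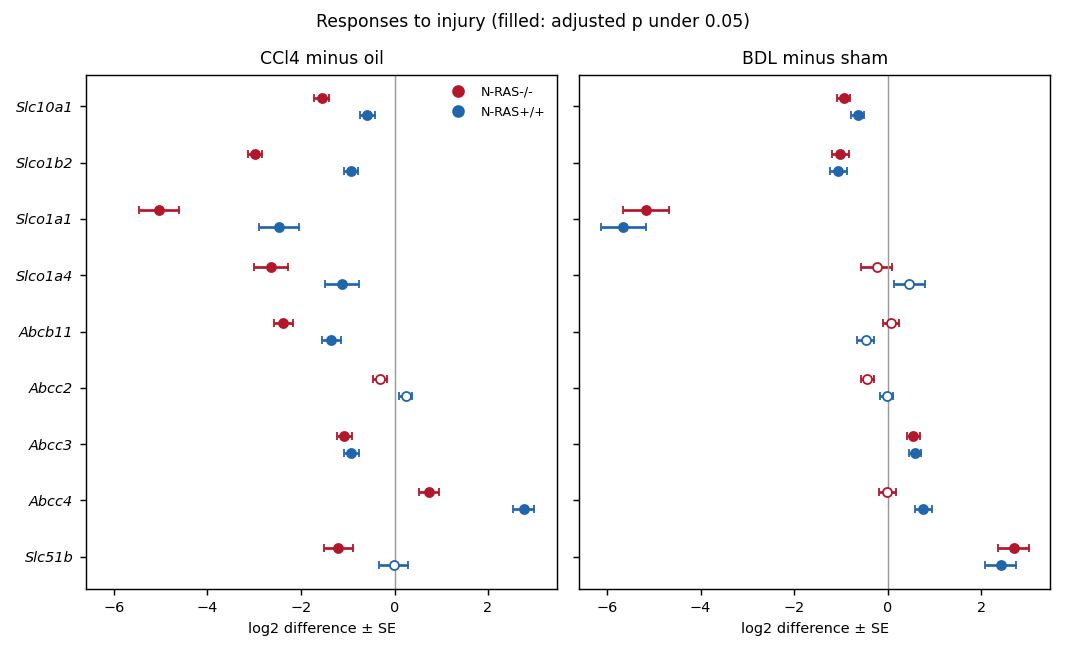
Log2 difference of each transporter after CCl4 against oil (left) and BDL against sham (right), with N-RAS-/- in red and N-RAS+/+ in blue. Points are limma estimates, bars are standard errors and filled points have an adjusted p under 0.05. Slco1a1 stands at -5.03 after CCl4 in N-RAS-/- livers and at -2.47 in N-RAS+/+ livers, and after BDL at -5.16 in N-RAS-/- livers and -5.65 in N-RAS+/+ livers.

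The genotypes were then compared within each treatment. In CCl4 livers, 6 of the 9 members were lower in N-RAS-/- mice and none was higher, against 14.3% of all genes called (5.56% lower, 8.72% higher). Slco1a1 had the largest difference, at 9.37-fold lower (log2 difference -3.23 ± 0.43, adjusted p = 2.40e-04), followed by Abcc4 at 4.29-fold lower (-2.10 ± 0.22, adjusted p = 4.79e-05) and Slco1b2 at 3.55-fold lower (-1.83 ± 0.15, adjusted p = 7.12e-06). Slco1a4 was 2.44-fold lower (-1.28 ± 0.36, adjusted p = 0.0276), Abcb11 1.95-fold lower (-0.97 ± 0.20, adjusted p = 0.00581) and Slc10a1 1.83-fold lower (-0.87 ± 0.16, adjusted p = 0.00277). For all 6 genes the 3 N-RAS-/- livers lay below the 3 N-RAS+/+ livers, as they also did for Abcc2, which was not called. The share of all genes separated in this way was not counted. The call for Slco1a4 was lost without N24 or N26 (N-RAS+/+) or N30 (N-RAS-/-), at adjusted p values of 0.0626, 0.10 and 0.129. Abcc2, Abcc3 and Slc51b were not called, with differences of -0.33 (95% interval from -0.63 to -0.04), -0.14 (from -0.49 to 0.21) and -0.56 (from -1.24 to 0.11). All 6 CCl4 arrays had Y-linked signal in the higher range. Hepatocyte markers averaged 12.41 to 12.45 in N-RAS-/- CCl4 livers and 12.47 to 12.55 in N-RAS+/+ CCl4 livers, and stellate cell and myofibroblast markers, 6 of 6 on the array, averaged 6.98 to 7.46 in N-RAS-/- CCl4 livers and 6.29 to 7.01 in N-RAS+/+ CCl4 livers. Their part in these differences was not tested.

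In livers without CCl4 no member was called between the genotypes by limma. After oil 0 members were called, against 0.847% of all genes, and 0 had an unadjusted p under 0.05. Among BDL livers 0 were called, against 0.705% of all genes, and 3 had an unadjusted p under 0.05 (Slco1a4, Abcc2 and Abcc4, all lower in N-RAS-/- livers). Slco1a4 read 9.88, 9.19 and 10.10 in N-RAS-/- BDL livers, against 10.66, 10.51 and 10.98 in N-RAS+/+ BDL livers (log2 difference -0.99 ± 0.33, adjusted p = 0.219). Fitted with Y-linked signal as a term, its difference was -1.12 (adjusted p = 0.0320). Among sham livers 0 were called, against 0.426% of all genes, and 2 had an unadjusted p under 0.05 (Slco1a1 at -1.15 and Abcb11 at -0.48). Of these 6 sham arrays, only N02 (N-RAS+/+) had Y-linked signal in the higher range.

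**Figure D5:**
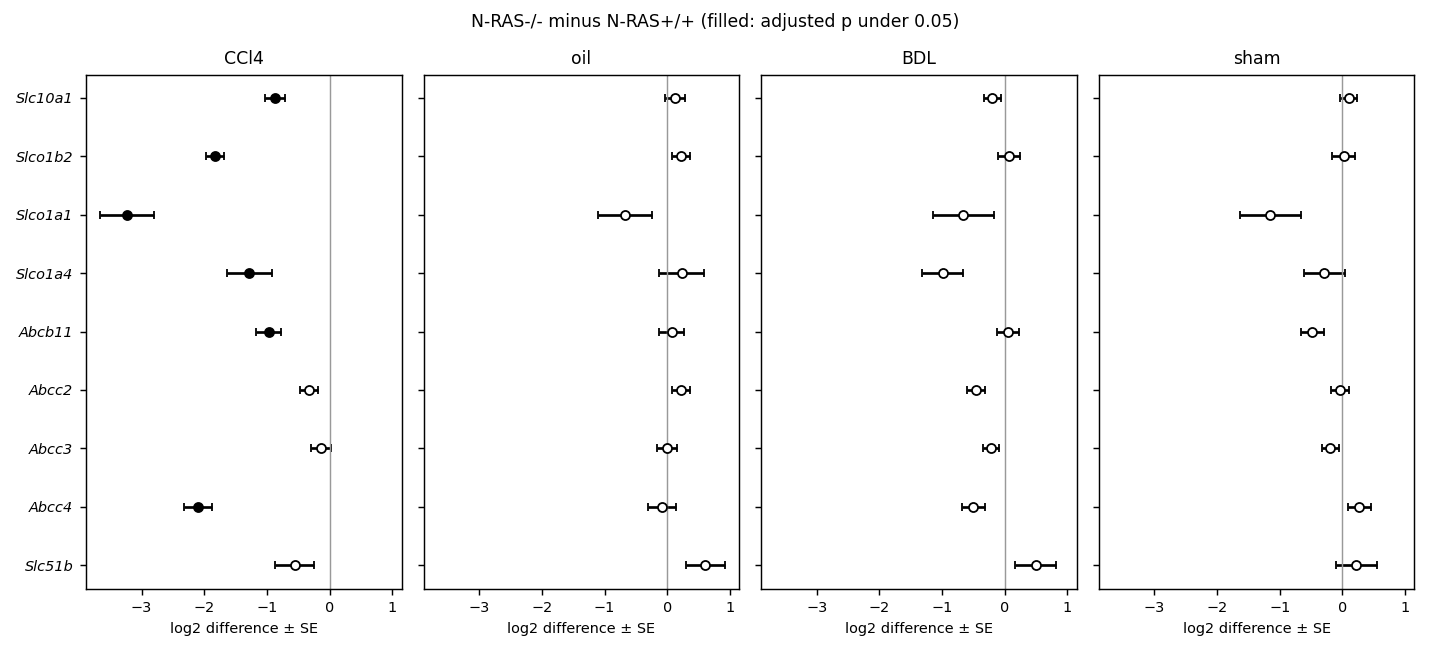
Log2 difference of each transporter between N-RAS-/- and N-RAS+/+ livers after CCl4, oil, BDL and sham. Points are limma estimates with standard errors, filled where the adjusted p was under 0.05, and values left of 0 are lower in N-RAS-/- livers. Filled points stand in the CCl4 panel alone, for 6 genes from -3.23 (Slco1a1) to -0.87 (Slc10a1).

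Whether the response itself differed between the genotypes was tested as an interaction. For CCl4, 4 members had a more negative response in N-RAS-/- livers, against 2.36% of all genes called (1.04% more negative, 1.32% more positive). Slco1b2 had the smallest adjusted p (-2.04 ± 0.22, adjusted p = 8.40e-04), and Abcc4 followed (-2.02 ± 0.32, adjusted p = 0.00547). For Slco1b2 this was a deeper fall, and for Abcc4 a smaller rise. Slco1a1 (-2.56 ± 0.60, adjusted p = 0.0390) and Slc10a1 (-0.99 ± 0.23, adjusted p = 0.0379) were called with all 12 arrays. Of the 12 arrays, leaving out any 1 of 10 ended the call of Slco1a1 (adjusted p = 0.0615 to 0.0868, the exceptions being N28 and N31), and leaving out any 1 of 9 ended that of Slc10a1 (0.0583 to 0.0923, the exceptions being N25, N27 and N31). The call of Slc10a1 was also lost after quantile normalization (adjusted p = 0.0810), with floored signals (0.0628) and with Y-linked signal as a term (0.0594). That of Slco1a1 was also lost with trended and robust eBayes (0.127) and with floored signals (0.131). Abcb11 (-1.03, adjusted p = 0.0725), Slco1a4 (-1.52, adjusted p = 0.136), Slc51b (-1.18, adjusted p = 0.185), Abcc2 (-0.55, adjusted p = 0.157) and Abcc3 (-0.15, adjusted p = 0.806) were not called. Abcb11 was called with trended and robust eBayes (adjusted p = 0.0377) and with all 24 arrays in 1 fit (0.0393). For BDL the interaction was called in 0 members and in 0% of all genes, and 1 member, Abcc4, had an unadjusted p under 0.05 (-0.77 ± 0.25, adjusted p = 0.599).

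The 2 injuries were set against each other as the difference between the BDL response and the CCl4 response, each taken against its own control. In N-RAS-/- livers 5 members had a more positive response to BDL, against 9.15% of all genes called (4.74% more positive, 4.40% more negative). These were Slc51b (3.89 ± 0.50, adjusted p = 1.90e-05), Abcb11 (2.45 ± 0.28, adjusted p = 5.01e-06), Slco1a4 (2.40 ± 0.54, adjusted p = 0.00540), Slco1b2 (1.97 ± 0.23, adjusted p = 6.91e-06) and Abcc3 (1.62 ± 0.20, adjusted p = 1.17e-05). In N-RAS+/+ livers 4 members were called, against 2.97% of all genes (1.56% more positive, 1.40% more negative). Slc51b (2.45 ± 0.50, adjusted p = 0.00608) and Abcc3 (1.5 ± 0.20, adjusted p = 7.97e-05) responded more positively to BDL. Slco1a1 (-3.18 ± 0.72, adjusted p = 0.0152) and Abcc4 (-2.00 ± 0.30, adjusted p = 3.09e-04) responded more negatively. With signals floored at 5, that of Slco1a1 was -2.54 (adjusted p = 0.0619), and that of Slc51b in N-RAS-/- livers was 2.91 (adjusted p = 2.05e-04). Slco1a4 in N-RAS+/+ livers stood at 1.59 (adjusted p = 0.122), and was called with Y-linked signal as a term (2.52, adjusted p = 0.00341) and without the 6 arrays where that signal was low (2.48, adjusted p = 0.0266). For Slc10a1 in N-RAS+/+ livers the responses to the injuries differed by -0.06, with a 95% interval from -0.48 to 0.36. In N-RAS-/- livers its difference was 0.62 (interval from 0.20 to 1.05, adjusted p = 0.0562), and leaving out oil array N27 or CCl4 array N31 brought the adjusted p to 0.0483 or 0.0254. It was also called with all arrays kept when signals were floored at 5 (adjusted p = 0.0407), when dim genes were left out (0.0334), with trended and robust eBayes (0.0227) and with Y-linked signal as a term (0.79, adjusted p = 0.0270). Without oil array N28 that of Abcc4 in N-RAS-/- livers was -1.03 (adjusted p = 0.0186), against -0.75 (adjusted p = 0.131) with all arrays. Abcb11 in N-RAS+/+ livers (0.88, adjusted p = 0.0999) had an adjusted p of 0.0219 without CCl4 array N24 (1.11) and of 0.0460 with array weights (0.97). Without the arrays of low Y-linked signal Slc51b in N-RAS+/+ livers was at 2.05 (adjusted p = 0.10).

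Ranked by mean level over the 8 groups, Slc10a1, Slco1b2, Slco1a4 and Abcb11 were all lowest in N-RAS-/- CCl4 livers, and for each of these 4 genes the ranges of that group and of the next did not overlap. How often this held over all genes was not counted. Abcc3 was also lowest there, at 9.71 ± 0.35 (SD, n = 3), but overlapped with the N-RAS+/+ CCl4 livers at 9.85 ± 0.08. Slco1a1 was lowest in the BDL groups, at 3.90 ± 0.30 in N-RAS-/- livers and 4.57 ± 0.96 in N-RAS+/+ livers. The ranges of these groups overlapped, and that of N-RAS-/- CCl4 livers (5.43 ± 0.92) overlapped with the N-RAS+/+ BDL livers. The top of the order differed by gene. Abcc4 was highest in N-RAS+/+ CCl4 livers (8.67 ± 0.10), with no overlap with the next group, N-RAS+/+ BDL (6.93 ± 0.20). Slco1a4 was highest in N-RAS+/+ BDL livers (10.72 ± 0.24) and overlapped with N-RAS+/+ sham livers (10.25 ± 0.79).

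A list of 23 other carriers of the same families or of bile lipids, all on the array, was counted in the same way. After CCl4, 11 were called in N-RAS-/- livers (9 lower, 2 higher), against 22.8% of all genes, and 9 in N-RAS+/+ livers (5 lower, 4 higher), against 15.2%, with a median difference of -0.24 in N-RAS-/- livers and -0.16 in N-RAS+/+ livers. Slc47a1, which encodes MATE1, an exporter of organic cations, fell 7.16-fold in N-RAS-/- livers (log2 difference -2.84 ± 0.16, adjusted p = 2.27e-08) and 3.26-fold in N-RAS+/+ livers (-1.70 ± 0.16, adjusted p = 4.98e-06). It was the 1 carrier of the list with a called CCl4 interaction (-1.14 ± 0.22, adjusted p = 0.0166). The organic anion carrier Slco2b1 fell 3.51-fold in N-RAS-/- livers and 2.08-fold in N-RAS+/+ livers. Slc10a5, a relative of NTCP, fell 4.87-fold in N-RAS-/- livers and 4.06-fold in N-RAS+/+ livers. In CCl4 livers, 5 of the 23 were lower and 0 higher in N-RAS-/- mice, against 14.3% of all genes called (5.56% lower, 8.72% higher), among them Slc47a1 (1.96-fold), Slco2b1 (1.74-fold) and Slco3a1 (1.5-fold). After BDL, 10 were called in N-RAS-/- livers (7 lower, 3 higher), against 11.2% of all genes, and 6 in N-RAS+/+ livers (5 lower, 1 higher), against 7.21%. In N-RAS+/+ livers Abcb1b, a multidrug exporter, rose 2.34-fold (adjusted p = 0.00132) and Abcg8, one part of the sterol exporter of the canaliculus, fell 2.31-fold (adjusted p = 0.00157). Abcc6, a relative of MRP2, fell 1.78-fold in N-RAS-/- livers (adjusted p = 0.00344). Its N-RAS+/+ means were 7.51 after BDL and 8.32 after sham. In N-RAS-/- livers Abcg8 averaged 9.23 after BDL and 10.11 after sham, and Abcb1b 6.18 after BDL and 5.97 after sham. Abcg2, a multidrug exporter of the canaliculus, had a more positive response to BDL than to CCl4 in N-RAS-/- livers (2.11 ± 0.40, adjusted p = 0.00120). It read 8.67 to 9.05 in N-RAS-/- sham livers, all of low Y-linked signal, and 8.87 to 10.28 in N-RAS-/- oil livers. The alternatives with Y-linked signal were examined for the members only, not for these carriers.

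A list of 18 receptors and factors known to act on these transporter genes, all on the array, was counted too. After CCl4, 8 were called in N-RAS-/- livers (8 lower, 0 higher), against 22.8% of all genes, and 7 in N-RAS+/+ livers (6 lower, 1 higher), against 15.2%. Nr0b2, which encodes SHP, a repressor induced by FXR, fell 3.87-fold in N-RAS-/- livers (-1.95 ± 0.16, adjusted p = 6.73e-07) and 2.42-fold in N-RAS+/+ livers (-1.27 ± 0.16, adjusted p = 7.41e-05). Nr1i3, the drug-sensing receptor CAR, fell 8.86-fold in N-RAS-/- livers and 2.89-fold in N-RAS+/+ livers. Cebpa, a hepatocyte transcription factor, fell 2.03-fold in N-RAS-/- livers and 1.90-fold in N-RAS+/+ livers. Nr1i2, the related receptor PXR, fell 2.41-fold in N-RAS-/- livers, and in N-RAS+/+ livers averaged 7.82 after CCl4 and 8.66 after oil. Ppara, the fatty acid receptor, averaged 10.25 ± 0.19 in N-RAS-/- CCl4 livers and 8.40 ± 0.37 in N-RAS+/+ CCl4 livers (SD, n = 3 each), 3.59-fold higher in N-RAS-/- mice (adjusted p = 9.60e-05). After CCl4 it fell 2.94-fold in N-RAS+/+ livers (adjusted p = 2.07e-04), from 9.96 ± 0.25 (SD) after oil. In N-RAS-/- livers, where it was not called after CCl4, the oil mean was 9.92 ± 0.35. Ppara was the 1 regulator with a called CCl4 interaction (1.88 ± 0.30, adjusted p = 0.00657). Between the genotypes in CCl4 livers 5 were called (3 higher in N-RAS-/- mice, Ppara among them, and 2 lower), against 14.3% of all genes. Those lower in N-RAS-/- mice were Nr0b2 (2.46-fold, adjusted p = 1.22e-04) and Nr1i3 (2.76-fold, adjusted p = 0.0165). After BDL, 4 were called in N-RAS-/- livers, against 11.2% of all genes, and 2 in N-RAS+/+ livers, against 7.21%, all of them lower, among them Ppara (2.99-fold in N-RAS-/- livers and 2.24-fold in N-RAS+/+ livers) and Klb, the co-receptor for intestinal FGF signals (1.60-fold in N-RAS-/- livers and 1.52-fold in N-RAS+/+ livers). Nr1h4, the gene of FXR, fell 1.54-fold after BDL in N-RAS-/- livers (-0.63 ± 0.18, adjusted p = 0.0362). In N-RAS+/+ livers, where it was not called after BDL, its mean was 9.24 after BDL and 9.81 after sham. After CCl4 it averaged 8.82 in N-RAS-/- livers and 8.86 in N-RAS+/+ livers, against 9.54 and 9.6 after oil. The alternatives with Y-linked signal were not examined for these regulators either.

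The genes whose profiles lay nearest to each member were found from the root mean square difference over the 24 arrays, after each gene was centred on its own mean. For Slc10a1 the nearest was Gcdh, at 0.18, where the member's own spread over the arrays was 0.57. For Slco1b2 it was Rgn, at 0.21 against a spread of 0.98, and for Abcb11 Amacr, at 0.25 against 0.79. Slco1a1 lay nearest to Sult2a8 (0.78 against 2.74) and then to Car3 (0.95). For Abcc4 the 3 nearest were Ch25h, Clec4e and Acod1 (0.44, 0.45 and 0.45 against 0.87). For Slc51b they were Gm609, Elf3 and Gipc2 (0.53, 0.57 and 0.58 against 1.30). Abcc3 was nearest to Atl3 (0.26 against 0.61), Slco1a4 to Ces1g (0.67 against 1.45) and Abcc2 to Camk2n1 (0.15 against 0.20). These are descriptions over arrays that share groups, with no test.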

How the data were processed

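RNA of 24 mouse livers was measured on an Affymetrix array of 22206 probe sets. The log2 signals per array were deposited by the authors, already normalized between arrays by a method not given in the sources used here. MAS5 is listed in the processing notes of the submitters, without its role. Different labels are given, Cy3 in the protocol and biotin in the label field. The workbook's group columns are mean signals on the linear scale, made by the authors from these arrays. Its ratio and p-value columns hold the authors' own comparisons and were not used. Every per-array column was used (0 left out).

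Probe sets with 1 gene symbol (21367) were kept, and 836 with several and 3 with none were left out, among them a second Abcc2 probe set that names another gene as well. Symbols were updated by RefSeq (883 changed), and for 143 genes with several probe sets the brightest probe set stood for its gene, which gave 21144 genes. Each experiment (12 arrays, 1 coefficient per group) was fitted with limma 3.58.1 in R 4.3.3 with data.table (1.17.8), and the comparison of the injuries over all 24 arrays. Benjamini-Hochberg adjustment ran over all genes, with calls at 0.05. The fit was tested on simulated data. Figures and counts used python 3.11.15, pandas 2.3.3, scipy 1.17.1 and matplotlib 3.10.9. An exact permutation test of 3 against 3 cannot go below p = 0.10. Nothing states how far mice of a group were handled apart, so p values measure the spread between these mice only. The number of arrays limits the precision.

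Named were all members, at most 4 called genes per list and comparison by adjusted p, the 3 nearest genes per member, and Nras. Slc51a was named outside this rule. The members and lists were chosen with earlier results of these data known. Some listed genes are counted but not reported here by name. Alternatives were quantile normalization, a floor of 5, the mean of probe sets, a filter on dim genes (below the 40th percentile), other eBayes priors, array weights, other sets of arrays, the methods' t-test, Y-linked signal as a term, leaving out the 6 arrays of low Y-linked signal and leaving out each array.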

Additional observations from a re-analysis of the deposited data

Results flagged for a closer look

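Of the 9 transporters, 4 had a response to CCl4 that differed between the genotypes by the interaction test, against 2.36% of all genes. The call was lost in 13 of 21 alternatives for Slc10a1 and in 12 of 21 for Slco1a1. The interaction was -2.04 for Slco1b2 (adjusted p = 8.40e-04), -2.02 for Abcc4 (adjusted p = 0.00547), -0.99 for Slc10a1 (adjusted p = 0.0379) and -2.56 for Slco1a1 (adjusted p = 0.0390), each more negative in N-RAS-/- livers.

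In N-RAS-/- livers the response to BDL differed from that to CCl4 for 5 members, against 9.15% of all genes. These were Slc51b (3.89), Abcb11 (2.45), Slco1a4 (2.40), Slco1b2 (1.97) and Abcc3 (1.62). In N-RAS+/+ livers the responses differed for 4 members, against 2.97% of all genes. These were Slc51b (2.45), Abcc3 (1.5), Slco1a1 (-3.18) and Abcc4 (-2.00). Slc51b and Abcc3 were on both lists, with the same sign. Slco1a4 was at 1.59 in N-RAS+/+ livers (adjusted p = 0.122) and at 2.52 with Y-linked signal as a term (adjusted p = 0.00341), which rests mainly on arrays N02 and N28. Groups of 3 were too small for a test of outlying arrays.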

How the results depend on the processing

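Over the members, 1926 values were recomputed under an alternative: 1739 kept their direction (or came to 0.00) and their side of the threshold, 97 kept their direction and were no longer called, 20 kept it and became called, and 70, over 25 differences, had the other sign. None of those 25 was called in limma with all arrays, and none of the 70 was called either (lowest adjusted p = 0.210). With Y-linked signal as a term the sign changed after BDL in N-RAS-/- livers for Slco1a4 (1.05), Abcb11 (-0.15) and Abcc4 (0.07), after BDL in N-RAS+/+ livers for Abcc2 (0.08), between the genotypes for Slco1a4 in oil livers (-0.13) and for Slc10a1 (-0.03) and Slco1b2 (-0.15) in sham livers, for the BDL interaction of Abcc3 (0.01), and for BDL against CCl4 response in N-RAS+/+ livers for Slc10a1 (0.14) and Slco1b2 (0.09). Without the 6 arrays of low Y-linked signal it changed after BDL in N-RAS+/+ livers for Abcc2 (0.04), between the genotypes in oil livers for Slco1a4 (-0.16), and for BDL against CCl4 response in N-RAS+/+ livers for Slc10a1 (0.21) and Slco1b2 (0.27). Quantile normalization turned Abcc2 after BDL in N-RAS+/+ livers (0.03) and Slc10a1 (-0.02) and Abcb11 (-0.01) between the genotypes in oil livers. Array weights turned Abcc4 after BDL in N-RAS-/- livers (0.02), Slco1b2 between the genotypes in sham livers (-0.04) and the BDL interaction of Abcc3 (0.03). The floor of 5 turned Slc51b after CCl4 in N-RAS+/+ livers (0.19) and the BDL against CCl4 response of Slco1a1 in N-RAS-/- livers (0.77). Leaving out each array in turn, the ranges that held both signs were as follows. After treatment they were -0.47 to 0.21 for Slc51b (CCl4, N-RAS+/+), -0.09 to 0.08 for Abcc2 (BDL, N-RAS+/+), and for BDL in N-RAS-/- livers -0.43 to 0.02 for Slco1a4, -0.06 to 0.25 for Abcb11 and -0.21 to 0.10 for Abcc4. Between the genotypes they were -0.33 to 0.01 for Abcc3 in CCl4 livers, -0.16 to 0.55 for Slco1a4, -0.04 to 0.24 for Abcb11 and -0.36 to 0.09 for Abcc4 in oil livers, -0.05 to 0.15 for Slco1b2 and -0.09 to 0.23 for Abcb11 in BDL livers, and -0.04 to 0.19 for Slc10a1, -0.17 to 0.18 for Slco1b2, -0.73 to 0.01 for Slco1a4, -0.11 to 0.06 for Abcc2 and -0.08 to 0.41 for Slc51b in sham livers. For the interactions they were -0.33 to 0.01 for Abcc3 (CCl4) and, for BDL, -0.11 to 0.24 for Slco1b2, -0.06 to 1.01 for Slco1a1, -0.09 to 0.04 for Abcc3 and -0.01 to 0.57 for Slc51b. For BDL against CCl4 response they were -0.20 to 0.03 for Slc10a1 and -0.30 to 0.04 for Slco1b2 in N-RAS+/+ livers and -0.64 to 0.42 for Slco1a1 in N-RAS-/- livers. The methods' t-test with Benjamini-Hochberg adjustment, which has no shared estimate of the spread, called fewer members: 4 after CCl4 in N-RAS-/- livers (limma 8), 3 in N-RAS+/+ livers (7), 3 after BDL in N-RAS-/- livers (5), 0 in N-RAS+/+ livers (6) and 2 between the genotypes in CCl4 livers (6). Over the whole array the t-test called 1958, 462, 862, 16 and 384 genes in these comparisons, in the same order. By limma the counts were 4828, 3223, 2376, 1524 and 3020. Without the 6 arrays of low Y-linked signal, 1 member (Slco1a1) was called after BDL in N-RAS+/+ livers, where 1 sham array is left and assumed to vary like the other groups. Comparisons that use N-RAS-/- sham livers could not be run without those arrays. With Y-linked signal as a term, 1 was called after BDL in N-RAS-/- livers, 3 in N-RAS+/+ livers and 1 (Slco1a4) between the genotypes in BDL livers. Over the whole array this fit called 426, 560 and 175 genes, against 2376, 1524 and 149 without the term. It rests mainly on array N02. With signals floored at 5, the CCl4 interaction was called for 2 members (Slco1b2 and Abcc4) instead of 4. Over the whole array it was called for 301 genes, against 499 without the floor. The cause of these changes was not tested. Leaving out each array in turn gave 6 to 8 called members after CCl4 in N-RAS-/- livers, 5 to 6 in N-RAS+/+ livers, 4 to 6 after BDL in each genotype, 5 to 6 between the genotypes in CCl4 livers, 2 to 4 for the CCl4 interaction, 5 to 6 for BDL against CCl4 response in N-RAS-/- livers and 4 to 5 in N-RAS+/+ livers, and 0 elsewhere. No paired analysis was possible because the replicate numbers are shared by no groups. Signals near or below 5, as those of Slc51b outside BDL and of Slco1a1 after BDL, give fold changes that depend on how low signals were processed.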
